A study of Mus musculus with 2 samples.

Results

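Translation initiation, elongation and release factors are the proteins that load ribosomes onto mRNA, move them along it and let them go at the stop codon. They were chosen here by name: every array probe whose gene symbol begins with Eif1 to Eif6, Eef1 or Eef2, or is Etf1, Gspt1 or Gspt2. This rule found 66 of the 19057 genes named on the array, read by 129 of its 45281 probes, and it used no measured value. The probes were read on 2 Illumina expression arrays of wild-type E12.5 mouse embryo lens, 1 array of lens epithelium and 1 of lens fibers. The labels state no strain, number of embryos, treatment or way of separating epithelium from fibers. With 1 array per tissue there were no replicates, so no test was possible, no error between replicates is known and every ratio describes this pair of arrays.

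Initiation begins when eIF2 brings the initiator tRNA to the small ribosomal subunit, helped by eIF1, eIF1A, eIF5 and the large scaffold eIF3. The cap-binding complex eIF4F recruits the mRNA, eIF5B joins the large subunit, eEF1A delivers each aminoacyl-tRNA, eEF2 moves the ribosome on, and eRF1 with eRF3 ends the chain. In the lens, epithelial cells at the front divide, and fiber cells behind them leave the cell cycle, elongate and fill with crystallin proteins. In whole-tissue RNA, fewer cells of a type and less RNA per cell cannot be told apart.

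Translation factors differed between the tissues by 2-fold or more about as often as other measured genes. After quantile normalization, 42 of the 66 genes were above the floor of at least 1 array, a level not passed by 95% of the probes of genes assumed silent in lens (44.6 in epithelium, 32.1 in fibers). Of these 42, 30 passed both floors, 10 passed that of fibers alone and 2 that of epithelium alone. Of all 19057 genes, 6490 were measured, and the same counts were 2980, 2357 and 1153. Where a gene passed 1 floor, its value was divided by the floor it missed, which gives a lower bound on the fold, written "at least". Each gene is given by its brightest probe, and log2 ratios are fibers over epithelium. At a threshold of 2-fold, 8 of the 42 genes were higher in fibers, against 15.5% of all 6490 measured genes, and 5 were higher in epithelium, against 18.3% of all. Of the 8, 5 passed the floor in fibers alone (Eif2s2, Eif3h, Eif4e2, Eif4e3 and Eif6), so the filter itself required them to be high there. The counts also hold genes with a second measured probe of the opposite sign, namely Eif3l and Eif4e2 toward fibers and Eif3k toward epithelium. Among the 30 factors with a ratio from both arrays, 3 were higher in fibers by that threshold, against 14.3% of 2980 such genes, and 4 in epithelium, against 17.3%. The other 23 lay within 2-fold, 76.7% beside 68.4% of such genes. A further 6 factors had a bound under 2-fold, which does not place them within it.

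The direction was less even than the size. The log2 ratio was positive for 29 of the 42 genes and negative for 13, where 43.8% of all measured genes were positive and 44.0% negative, the rest having no direction. The median log2 ratio was 0.37 for the factors and 0.00 for all measured genes. Among genes above the floor on both arrays, 19 of 30 factors were positive and 11 negative, against 42.8% and 57.2% of all such genes, with medians of 0.27 and -0.19. This sign depends on the scaling between the arrays. With scaling to 6 housekeeping genes, which moved the median of all measured genes to -0.89, 5 factors were positive and 29 negative, with a median of -0.65. The factor median was then 0.24 above that of all measured genes.

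**Figure D1:**
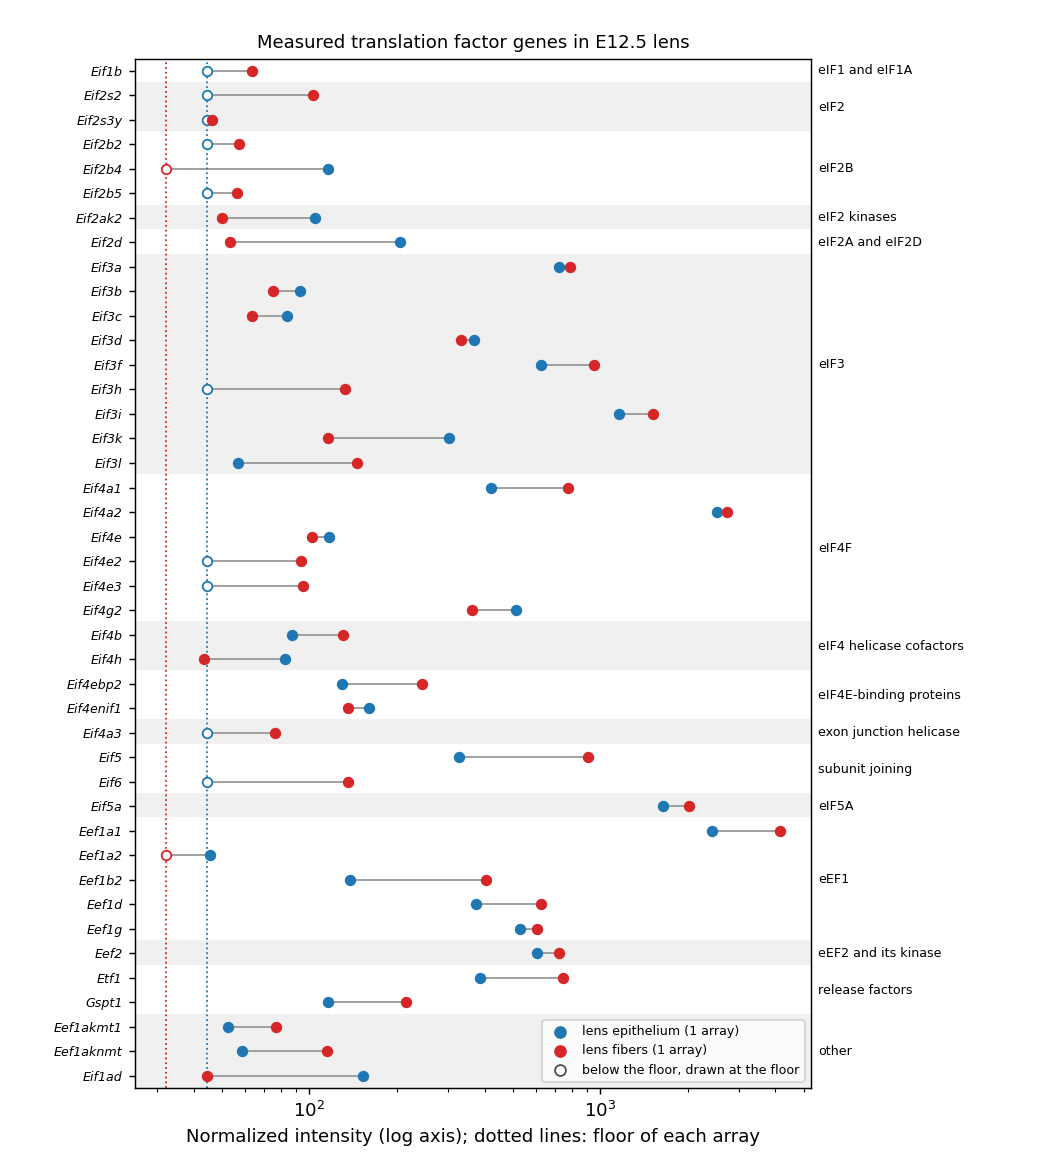
Normalized intensity (log axis) of the 42 measured genes, 1 row per gene grouped by complex, with epithelium in blue and fibers in red and the floor of each array as a dotted line. Eef1a1 is plotted at 2429 and 4162, and open points mark the 12 genes that were below the floor on 1 array.

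The tissues carried the markers of their labels. All 9 lens fiber markers on the array reached 2-fold toward fibers, and all 5 measured lens epithelium markers were higher in epithelium, 4 of them by 2-fold or more. Crybb1, a beta crystallin, read 183 in epithelium and 3389 in fibers, and Cdh1, E-cadherin, read 854 and 164. Another epithelium marker, Foxe3, was below both floors. Of the 9 fiber markers, 7 also passed the floor in epithelium, among them Mip (3206.5 and 19878) and Cryba4 (1511.5 and 12383). In turn, 4 epithelium markers passed the floor in fibers. Whether either sample held RNA of the other lens tissue was not tested. Of the markers of other cell types, 1 of 7 for periocular mesenchyme (Tfap2b, 209 and 36.2) and 1 of 4 for retina (Sfrp2, 1256 and 140) passed a floor, both higher in epithelium. The other 9 markers of these 2 tissues were below both floors. The lists of blood, vessel, macrophage, pigment and surface cells had at most 2 genes above a floor each, with summed levels of 45.6 to 141 in epithelium and 73.5 to 213 in fibers. The part of these cells in the ratios below was not tested.

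The promoters of the factors were read from RefSeq (GRCm38.p6), as the 250 bases before and 50 after each annotated start. Of the 66 genes, 49 had an entry. The E-box CACGTG, which reads the same on both strands and is bound by Myc and related factors, was in the window of 12 of the 49 (24.5%), beside 8.09% of all 27025 genes with an entry. Among measured genes it was in 10 of 33 factors (30.3%) and in 12.1% of 5279 genes. The motif holds a CpG, and the CpG content of the windows was not compared. A gene was counted if the window of any of its annotated starts held the motif. The number of starts per gene was not compared either. The following lines show 30 bases around the E-box, 5′ to 3′ on the gene's strand with the motif in capitals, for 7 of the 10 measured factors. The windows of Eif5a, with several annotated starts, of Eef1aknmt and of Eif3a, whose motif lies after the start, are not shown.
Eef2, chr10:81176576-81176605, plus strand: acccggcgccgtCACGTGacgcacccaacc
Eif1b, chr9:120492570-120492599, plus strand: cgtgcggacggtCACGTGgcggcggcgcgc
Eif3f, chr7:108934335-108934364, plus strand: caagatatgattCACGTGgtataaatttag
Eif3k, chr7:28981915-28981944, minus strand: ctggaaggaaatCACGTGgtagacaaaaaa
Eif4a1, chr11:69672595-69672624, minus strand: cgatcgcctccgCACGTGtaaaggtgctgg
Eif4e, chr3:138527028-138527057, plus strand: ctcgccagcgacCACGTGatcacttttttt
Eif4e, chr3:138527192-138527221, plus strand: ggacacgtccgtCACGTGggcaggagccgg
Eif4h, chr5:134639488-134639517, minus strand: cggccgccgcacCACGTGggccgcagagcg
Counted in bases from the annotated start, the E-box began at -43 in Eef2, -24 in Eif1b, -68 in Eif3f, -44 in Eif3k, -189 in Eif4a1, -228 and -64 in Eif4e and -96 in Eif4h. The median log2 ratio was 0.27 over the 10 measured factors with an E-box and 0.33 over the 23 without.

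A second motif was sought at the start itself, the terminal oligopyrimidine (TOP) tract that marks many mRNAs of the translation machinery: a C within 5 bases of the annotated start, on the gene's strand, followed by at least 4 bases that are each C or T. Counted over any annotated start as before, it was found for 13 of the 49 factors (26.5%), 21.2% of all genes and 48.9% of 45 cytosolic ribosomal protein genes. Among measured genes it was found for 9 of 33 factors (27.3%) and 23.7% of 5279 genes. Windows of 30 bases, 10 before and 20 after the start, are shown for the X and Y copies of the eIF2 gamma subunit, which have like tracts, and for 2 eIF3 subunits, with the tract in capitals.
Eif2s3x, chrX:94212632-94212661, minus strand: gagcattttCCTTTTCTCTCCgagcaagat
Eif2s3y, chrY:1010585-1010614, plus strand: ggccacagccaCTTCCTTCTTTCgtgagca
Eif3f, chr7:108934405-108934434, plus strand: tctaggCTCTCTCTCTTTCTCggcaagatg
Eif3l, chr15:79075213-79075242, plus strand: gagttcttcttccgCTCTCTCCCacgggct
The tract of both eIF2 gamma copies was 12 bases long, that of Eif3f 15 and that of Eif3l 9. Those of Eif1ad, Eif2ak1, Eif2ak3, Eif3b and Eif4enif1, not shown, had only 5 bases, the least that the definition allows. Measured factors with the tract had a median log2 ratio of 0.33 (9 genes) and those without it 0.27 (24 genes). For Eif3f the windows shown for the E-box and for the tract do not overlap. A match to letters is not a binding site, and annotated starts can differ from those used in lens.

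Start-codon selection and delivery of the initiator tRNA were thinly measured. Eif1b, a close relative of the scanning factor eIF1, was below the floor in epithelium (14.8) and read 63.3 in fibers, at least 1.42-fold higher, while Eif1a and Eif1ax, which encode eIF1A, were below the floor on both arrays. Eif2s2, the beta subunit of eIF2, was below the floor in epithelium (9.92) and read 103 in fibers, at least 2.31-fold higher. A second Eif2s2 probe was below both floors. The eIF2 gamma subunit gene on the X chromosome, Eif2s3x, was below both floors (4.93 and 24.1). Its copy on the Y chromosome, Eif2s3y, read 36.8 and 46.4, a bound of 1.04-fold toward fibers, and its other probe read 49.8 and 21.0, at least 1.55-fold higher in epithelium. Both probes lay near the floors. Of other sex-linked genes, Xist, the RNA of the inactive X chromosome, read 192 and 301, and Kdm5d and Uty of the Y chromosome were below both floors. The labels do not state the sex of the embryos.

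eIF2B reloads eIF2 with GTP, and its subunits did not move together. Eif2b4, the delta subunit, read 116 in epithelium and 31.1 in fibers, just under the floor there, a bound of 3.60-fold toward epithelium. The beta subunit Eif2b2 read 16.9 and 57.2, at least 1.28-fold higher in fibers. The catalytic epsilon subunit Eif2b5 read 24.0 and 56.2, a bound of 1.26-fold toward fibers, and all 3 of its probes had a bound in that direction (1.13-fold to 1.26-fold). Each of these probes passed the floor in fibers alone, so none could point toward epithelium. The alpha and gamma subunits, Eif2b1 and Eif2b3, were below both floors. All 3 ratios in this complex are bounds, and their median log2 value was 0.33.

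Of the 4 kinases that shut down initiation by phosphorylating eIF2, 1 was measured. Eif2ak2, the kinase PKR that senses double-stranded RNA, read 105 in epithelium and 50.3 in fibers, 2.08-fold higher in epithelium. The other 3, Eif2ak1 (the heme-regulated kinase HRI), Eif2ak3 (the endoplasmic reticulum stress sensor PERK) and Eif2ak4 (the amino acid sensor GCN2), were below both floors with each of their 6 probes. Eif2d, a factor that can place tRNA on the ribosome without eIF2, read 205.5 and 53.3 and had a log2 ratio of -1.95 (3.85-fold higher in epithelium). That value came from 1 of 3 probes, and the other 2 were below both floors. Eif2a, another factor linked to initiation without eIF2, was below both floors (36.8 and 10.1).

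eIF3, the scaffold of the initiation complex, had 12 genes on the array and 9 measured. Of these, 2 reached 2-fold toward fibers and 1 toward epithelium, and the median log2 ratio was 0.13. Its core subunits stayed within 2-fold by their brightest probes. Eif3a read 720.5 in epithelium and 790 in fibers (log2 ratio 0.13), Eif3b read 93.1 and 75.0 (-0.31), and Eif3c read 83.5 and 63.3 (-0.40). A second Eif3c probe went the other way, at 10.9 and 55.3, a bound of 1.24-fold toward fibers. For Eif3a, another probe read 76.3 and 35.2 (2.17-fold higher in epithelium), and a further probe had a bound of 1.31-fold toward fibers. Eif3i, which sits with Eif3b, read 1158 and 1512 (1.31-fold higher in fibers), and all 3 of its measured probes were positive. Eif3d, a subunit that can itself bind the mRNA cap, read 369 and 333 (-0.15). Eif3f, a subunit of the MPN family, read 623 and 951 (1.53-fold higher in fibers), and its second probe gave 1.33-fold.

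The eIF3 subunits past 2-fold were Eif3h, Eif3k and Eif3l. Eif3h, the other MPN subunit, was at -0.12 in epithelium and 133 in fibers, at least 2.97-fold higher in fibers. Its second probe read 38.2 in fibers and had no direction. Eif3k and Eif3l form a pair at the edge of the complex, and each had probes in opposite directions. The Eif3k probe chosen as brightest read 302 and 116 (2.60-fold higher in epithelium), and the other read 128 and 215 (1.67-fold higher in fibers). The Eif3l probe chosen as brightest read 56.8 and 146 (2.57-fold higher in fibers), and the other read 99.8 and 36.2 (2.76-fold higher in epithelium). So no direction can be read for Eif3k and Eif3l. Eif3e, Eif3j1 and Eif3m were below both floors.

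The cap-binding complex eIF4F joins the cap-binding protein eIF4E, the helicase eIF4A and the scaffold eIF4G. It had 8 genes on the array and 6 measured, 2 of them reaching 2-fold toward fibers and none toward epithelium. Eif4e itself read 117 in epithelium and 102 in fibers (log2 ratio -0.19). Its relatives Eif4e2, known as a repressor that binds the cap without eIF4G, and Eif4e3 passed the floor in fibers alone by their brightest probes. Eif4e2 read 93.9 there, at least 2.10-fold higher in fibers, but its second probe read 62.7 and 23.0, at least 1.95-fold higher in epithelium. Eif4e3 read 94.9 in fibers, at least 2.13-fold higher, and its second measured probe gave at least 1.17-fold in the same direction. That probe also passed the floor in fibers alone, so it could not point toward epithelium. Eif4e1b was below both floors with each of 3 probes.

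The helicase genes stayed within 2-fold by their brightest probes. Eif4a2 read 2517 and 2722 (1.08-fold), and its other 2 measured probes gave 1.25-fold and 1.41-fold higher in fibers. Eif4a1 read 422 and 776 (1.84-fold higher in fibers), but its second probe read 172 and 75.9 (2.27-fold higher in epithelium). The 2 genes are closely related, and probe sequences were not used here, so binding to the other transcript was not tested. Eif4g2, an eIF4G relative that lacks the eIF4E-binding part, read 511.5 and 362 (1.41-fold higher in epithelium), while a second probe read 304 and 556.5 (1.83-fold higher in fibers). The remaining Eif4g2 probe read 39.7 and 70.2, a bound of 1.57-fold toward fibers. The scaffold Eif4g3 was below both floors. No probe was named for Eif4g1 under the rule.

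Partners of eIF4F were split in direction and stayed within 2-fold. Eif4b and Eif4h, which stimulate the helicase, had log2 ratios of 0.58 (87.3 and 131) and -0.93 (82.6 and 43.3). Eif4ebp2, which holds eIF4E away from eIF4G until mTOR phosphorylates it, read 130 in epithelium and 244 in fibers (1.88-fold higher in fibers). Eif4enif1, which carries eIF4E to the nucleus and to RNA granules, read 160 and 136 (log2 ratio -0.24). Eif4ebp1 and Eif4ebp3 were below both floors. Eif4a3, a helicase of the exon junction complex rather than of initiation, read 21.0 and 75.9, at least 1.70-fold higher in fibers.

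Both measured factors of subunit joining were past 2-fold in fibers. Eif5, which triggers GTP hydrolysis on eIF2 at the start codon, read 326 in epithelium and 910 in fibers, 2.79-fold higher in fibers. Its other 2 probes had bounds of 2.08-fold and 4.69-fold toward fibers, and Eif5 was the only one of 22 genes with several measured probes whose probes all reached 2-fold in fibers. Eif6, which keeps the large ribosomal subunit from joining too early, was below the floor in epithelium (39.7) and read 136 in fibers, at least 3.05-fold higher. A second Eif6 probe was below both floors. With the mean of its probes the log2 bound was 0.73, and with the floor at the 99th percentile it was 0.30, both under 2-fold. Eif5b, the GTPase that joins the subunits, was below both floors with each of its 3 probes.

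The elongation factors with a ratio from both arrays were all higher in fibers, by less than 2-fold in 5 of 6 genes. Of all genes above both floors, 42.8% were positive. The direction of most of these factors depended on the scaling, as given below. Eef1a1, which delivers aminoacyl-tRNA, read 2429 and 4162 (1.71-fold), and its other 2 probes gave 1.61-fold and 1.08-fold. Eef1b2, Eef1d and Eef1g form the exchange complex that recharges eEF1A with GTP. Eef1b2 read 137.5 and 406 (2.95-fold higher in fibers), with other probes at 4.51-fold and 1.75-fold. Eef1d read 374 and 623 (1.67-fold), from 1 of 4 probes, and Eef1g read 530.5 and 603.5 (1.14-fold). Eef1a2, the form of eEF1A found in adult neurons and muscle, read 45.6 in epithelium, just over the floor, and was at least 1.42-fold higher there, with 2 further probes below both floors. Eef1e1, which belongs to the complex of aminoacyl-tRNA synthetases, was below both floors. The median log2 ratio of the 5 measured eEF1 genes was 0.74.

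Eef2, the translocase of the ribosome, read 605 and 722.5 (1.19-fold), and its other 2 probes gave 1.51-fold and 1.63-fold higher in fibers. Its inhibitory kinase Eef2k was below both floors. Eif5a, which carries the rare amino acid hypusine and helps elongation at difficult sequences, read 1646 and 2012 (1.22-fold), with other probes at log2 ratios of 0.29 and -0.20. Its relative Eif5a2 was below both floors. Scaling to 43 ribosomal protein genes lowered the ratios by 0.49 on the log2 scale, and scaling to housekeeping genes by 1.25. Under the first, 6 positive factor ratios turned negative and 3 bounds lost their direction, and under the second 16 and 8 did. Of the elongation factors, Eef1g, Eef2 and Eif5a were negative under the first (-0.31, -0.24 and -0.20). Under the second, all measured elongation factors but Eef1b2 were negative. The 5 factors that were positive under housekeeping scaling, Eef1b2, Eif3h, Eif3l, Eif5 and Eif6, stayed positive under each scaling tried. Of these, Eif3h and Eif6 had bounds in the main values, and Eif3l had probes in opposite directions.

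Of the release factors, Etf1 was higher in fibers and Gspt1 had probes in opposite directions. Etf1, which encodes eRF1 and reads the stop codon, read 386 in epithelium and 745 in fibers (1.93-fold). Gspt1, which encodes its GTPase partner eRF3, read 116 and 216 (1.86-fold), but its second probe read 156 and 49.1 (3.17-fold higher in epithelium), so no direction can be read for Gspt1. Gspt2, the second eRF3 gene, was below both floors.

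Symbols outside the complexes covered enzymes that methylate elongation factors and a relative of eIF1A. Eif1ad, a protein with an eIF1A-like domain, read 152 in epithelium and 44.3 in fibers (3.44-fold higher in epithelium), and its second measured probe was at least 2.37-fold higher there. It was the only gene of the 22 whose measured probes all reached 2-fold in epithelium. Eef1akmt1, a lysine methyltransferase of eEF1A, read 52.7 and 76.7 (1.45-fold higher in fibers). Eef1aknmt, which methylates the start and a lysine of eEF1A, read 58.6 and 115 with its brightest probe (1.96-fold higher in fibers), but 2 other probes had bounds of 4.18-fold and 1.48-fold toward epithelium. Eef1akmt2, Eef2kmt and the pseudogene Eif2s3x-ps1 were below both floors.

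**Figure D2:**
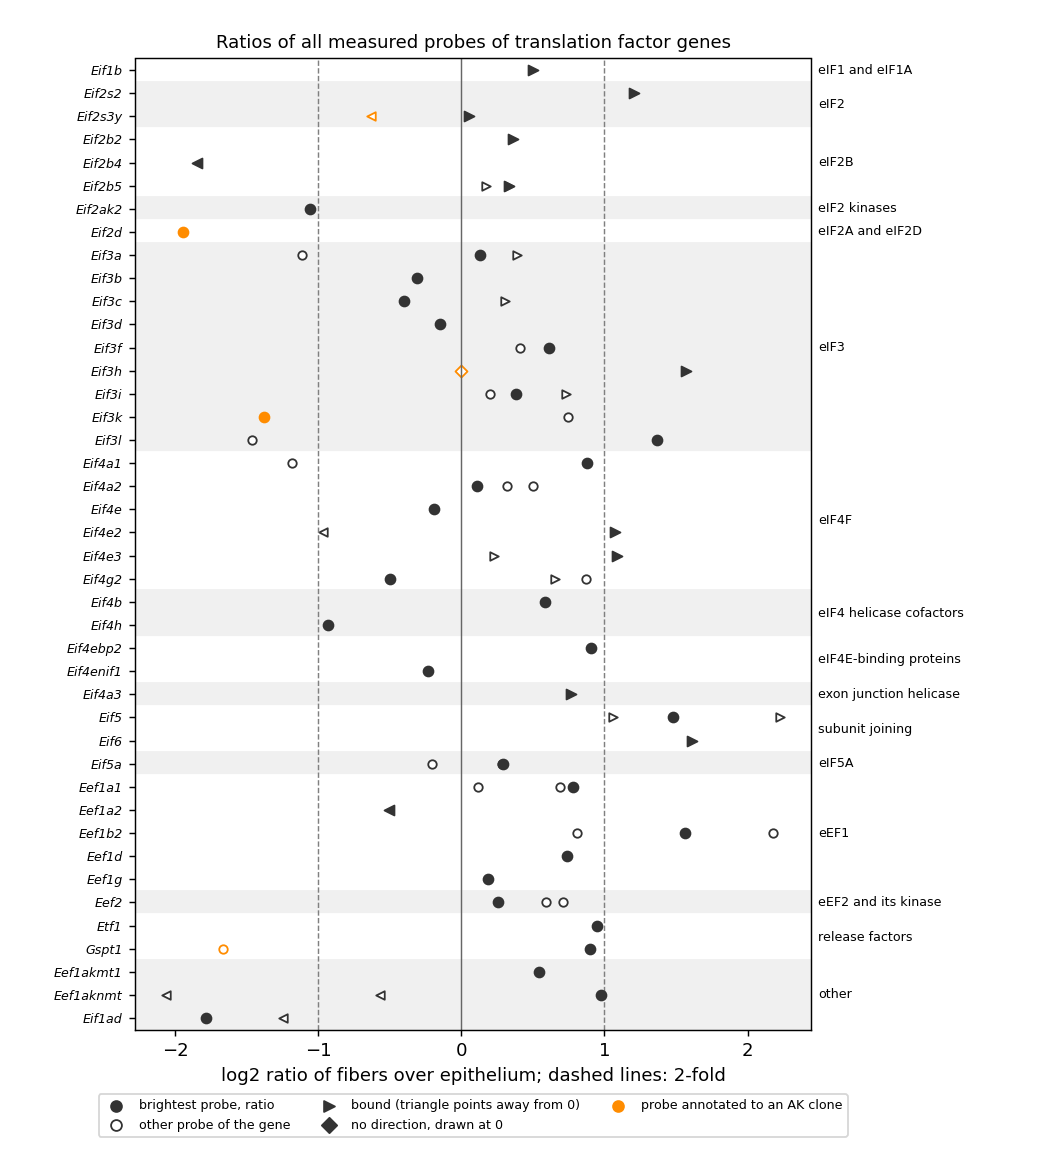
The log2 ratio of fibers over epithelium (x axis) for each measured probe of the 42 genes, filled for the brightest probe of a gene and open for the others, with triangles for bounds, orange for probes annotated to cDNA clones and dashed lines at 2-fold. The 3 probes of Eif5 lie right of the 2-fold line, while those of Eif3l, Eif4a1 and Gspt1 lie on both sides of 0.

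Probes of the same gene often gave different answers, which limits each single ratio. Of the 22 factors with 2 or more measured probes, 9 had all probes positive and 1 had all negative. In 11 the probes had opposite signs, and in 8 they also stood 2-fold or more apart, namely Eef1aknmt, Eif3a, Eif3k, Eif3l, Eif4a1, Eif4e2, Eif4g2 and Gspt1. A probe that passed 1 floor alone could not take the opposite sign. This fixed the agreement of Eif2b5 and Eif4e3 in advance, and it applied to part of the probes of Eif3i, Eif5 and Eif1ad. Agreement between probes was not counted over all genes. For Eif3a the probes other than the brightest read 76.3 and 35.2 (2.17-fold higher in epithelium) and -1.15 and 58.3 (at least 1.31-fold higher in fibers). The pooled SD of the log2 ratio between probes of 1 gene was 0.91 for the 13 factors with several probes above both floors and 0.74 for all 472 such genes. Counted by probe, 11 of the 75 measured factor probes reached 2-fold toward fibers, against 14.8% of all measured probes, and 11 were higher in epithelium, against 17.6%. The other 54 of the 129 probes were below both floors.

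The direction of a probe's ratio varied with the kind of transcript it was annotated to, a pattern noticed after the values were seen. Of the probes annotated to cDNA clones (accession prefix AK) rather than to a curated RefSeq mRNA (prefix NM), 5 of 15 factor probes were measured. None of the 5 was positive, 4 were negative and 3 were 2-fold or more higher in epithelium. They include the brightest probes of Eif2d and Eif3k and the second probe of Gspt1. The same lean was present over the whole array. Of 704 measured clone probes, 30.8% were 2-fold or more higher in epithelium and 5.54% in fibers, with a median log2 ratio of -0.61. Of 7658 measured RefSeq probes, 16.3% and 15.7% were, with a median of 0.00. In 302 genes with a measured probe of each kind, the clone probe had the lower mean log2 ratio in 186 (61.6%) and the higher in 110, with a median difference of -0.41. With RefSeq probes alone, 41 factors were measured. Of these, 8 reached 2-fold toward fibers, against 16.1% of 5988 measured genes, and 3 toward epithelium, against 17.1%. The median log2 ratio was 0.50 for the factors and 0.00 for those genes, and the log2 ratio of Eif3k was 0.74. The part of annotation in these ratios was not tested further.

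**Figure D3:**
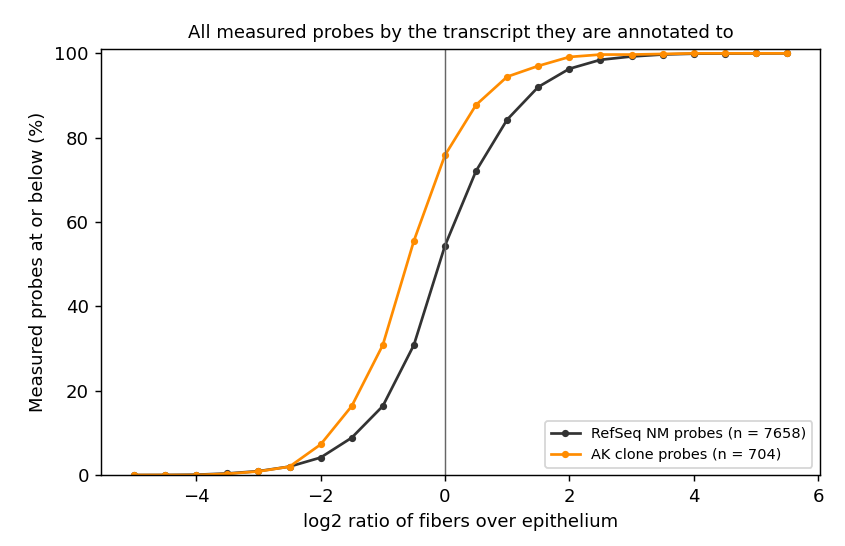
Cumulative share of measured probes (y axis, percent) at or below each log2 ratio of fibers over epithelium (x axis), for 7658 probes annotated to RefSeq mRNAs and 704 annotated to cDNA clones. The clone curve lies to the left, with 75.9% of its probes at or below 0 against 54.4%.

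At high levels a larger share of factors than of all genes with a ratio from both arrays lay within 2-fold. With the level split at 300, chosen after the values were seen, 16 factors reached it on an array and 13 of them (81.3%) lay within 2-fold, where 51.2% of 772 such genes did. Of the 16, 13 were positive, against 374 of those 772 genes, and the medians were 0.34 and -0.11. Of 14 dimmer factors with both values, 10 (71.4%) lay within 2-fold, beside 74.4% of such dimmer genes. The other 12 dimmer factors had bounds.

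Ribosomal proteins and tRNA synthetases had higher medians than the factors. Cytosolic ribosomal proteins, the proteins of the ribosome itself, had a median log2 ratio of 0.57 over 49 measured genes, 11 of them reaching 2-fold toward fibers and none toward epithelium. Rps4x, of the small subunit, read 218 and 992 (4.56-fold), and Rps15 read 107 and 332 (3.10-fold). Bounds toward fibers were 3.52-fold for Rps13 and 3.34-fold for Rps7. Aminoacyl-tRNA synthetases, which charge tRNA with amino acids, had 7 of 13 measured genes reaching 2-fold toward fibers and 3 toward epithelium, with a median of 1.31. This median is itself a bound. Of the 13, 5 passed both floors, 6 that of fibers alone and 2 that of epithelium alone. Among genes above both floors, the medians were 1.39 for synthetases, 0.49 for ribosomal proteins and 0.27 for the factors. Over all measured genes, 15.5% reached 2-fold toward fibers and 18.3% toward epithelium. Cars, for cysteine, had a bound of 4.69-fold toward fibers, Nars, for asparagine, read 50.7 and 207 (4.09-fold), and Eprs, for glutamate and proline, was at least 3.30-fold higher. Farsb, a subunit of the phenylalanine enzyme, went the other way, 137 and 29.1, at least 4.25-fold higher in epithelium.

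Of 13 other measured translation factors, 5 reached 2-fold toward fibers and 1, the poly(A)-binding protein inhibitor Paip2 (1282 and 638), toward epithelium, with a median of 0.00. Of the 13, 10 passed both floors and 3 that of fibers alone. Paip2b, which inhibits the poly(A)-binding protein, was at least 4.34-fold higher in fibers. Hbs1l, which rescues stalled ribosomes, read 87.3 and 224.5 (2.57-fold), and Pabpc1, the poly(A)-binding protein, read 96.0 and 226 (2.35-fold). Abce1, which splits ribosomes after release, was at least 2.23-fold higher in fibers. Second probes of genes outside the factor set were not compared.

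The pathways that set the activity of eIF2 and eIF4E were mixed. In the integrated stress response, which is switched on by phosphorylated eIF2, 1 of 6 measured genes reached 2-fold toward fibers and none toward epithelium (median 0.14). Atf5, a transcription factor of this response, read 48.8 and 179 (3.67-fold), while its master regulator Atf4 read 125 and 150 (1.20-fold). Ppp1r15b, a subunit of the eIF2 phosphatase, had a bound of 1.57-fold toward fibers, and Sesn2, a stress-induced inhibitor of mTORC1 signalling, had a log2 ratio of -0.40. Among 8 measured genes of the mTORC1 and MNK control of eIF4E, 1 was higher in each tissue by 2-fold or more (median -0.21). Mlst8, a subunit of the mTOR complexes, read 457 and 137 (3.32-fold higher in epithelium), and Tsc2, an inhibitor of mTORC1, read 123 and 277 (2.25-fold higher in fibers). Mtor had a bound of 1.83-fold toward epithelium, and Rheb, its activator, read 5919 and 3638.5 (1.63-fold higher in epithelium). Housekeeping genes had a median of 1.38 over 11 measured genes, 7 of them reaching 2-fold toward fibers, led by Rab7 (9.03-fold) and Psmb4 (4.84-fold), with bounds of 3.99-fold for Chmp2a and 3.94-fold for Hprt. Of the 11, 6 passed both floors and 5 that of fibers alone.

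**Figure D4:**
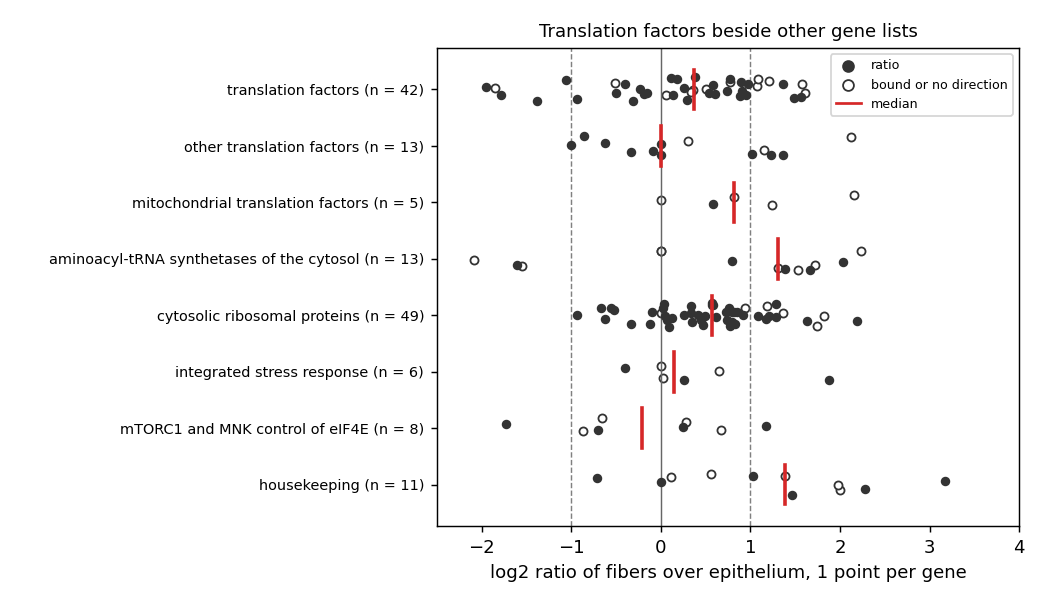
The log2 ratio of fibers over epithelium (x axis) for each measured gene of the translation factors and of 7 other lists, with filled points for ratios, open points for bounds or genes with no direction, and a red bar at the median. The factor median (0.37) lies below those of ribosomal proteins (0.57), aminoacyl-tRNA synthetases (1.31) and housekeeping genes (1.38).

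Across the ways of processing, the factor median stayed above that of all measured genes. The scalings to a median of 0, to housekeeping genes and to ribosomal protein genes divide every fibers value by a constant. That step moves both medians alike, except through bounds and genes with no direction, so these scalings are no separate check of the difference. The difference was smallest with scaling to ribosomal protein genes (0.14) and largest when the median of genes above both floors was set to 0 (0.52). The factor median itself ran from -0.65 with housekeeping scaling to 0.67 with a loess fit.

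**Figure D5:**
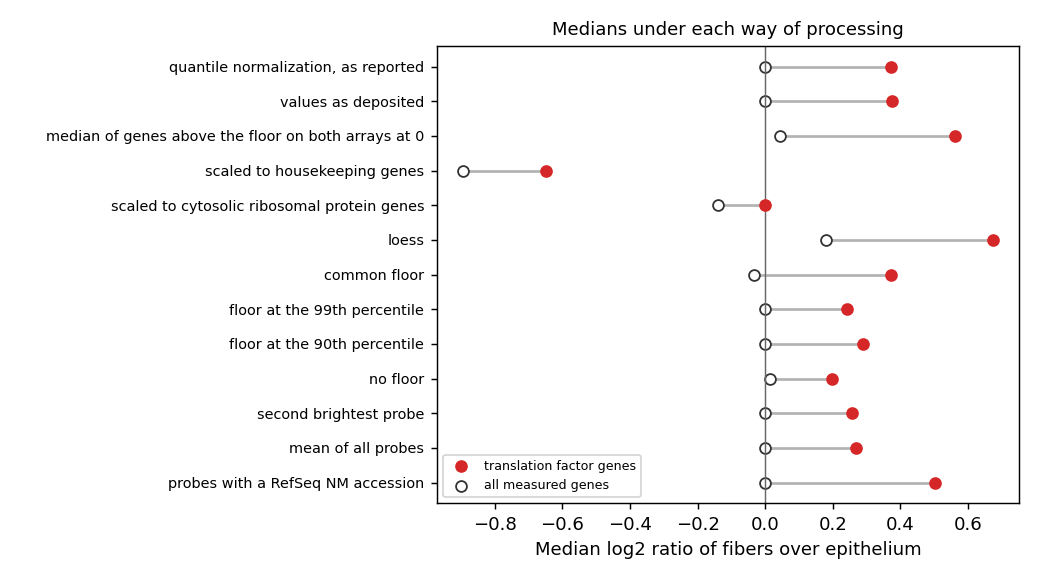
Median log2 ratio of fibers over epithelium (x axis) for the translation factor genes in red and all measured genes as open points, 1 row per way of processing. The red point lies right of the open one in each row, while both lie left of 0 (-0.65 and -0.89) under housekeeping scaling.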

How the data were processed

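Total RNA of 1 lens epithelium and 1 lens fibers sample carried a biotin label for Illumina arrays, per the labels' protocols. The authors deposited 1 linear intensity per probe and array, in whole numbers down to -16, so a background had been subtracted. How, with which scaling and with which software was not given in the sources used here. Quantile normalization was applied to these linear intensities with numpy 2.4.6, ties sharing their mean. Precision is limited by having 1 array per tissue. Probes were named through the platform annotation (34885 with 1 symbol, 18 with several, 10378 with none), and all 66 factor gene IDs were in the reference gene table of GRCm38.p6. Each array's floor was set at the 95th percentile over 1580 probes of 1308 genes taken as silent (keratin-associated proteins and olfactory, vomeronasal or trace amine receptors). A gene was represented by the probe with the highest mean log2 intensity, floored. Genes whose bound lay under 1 had no direction and entered medians as 0. No test was run. The factor set, complexes and lists were chosen with earlier results of these data known. Text names every measured factor, and up to 4 members of each other list with the largest absolute log2 ratio, apart from Paip2 and the examples of cell type markers, which were chosen after their values were seen. The ratio and call steps were tested on simulated data. In all, 14 alternatives were tried, 13 planned and 1 added after seeing the data.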

Additional observations from a re-analysis of the deposited data

How the results depend on the processing

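No paired analysis was possible because each tissue has 1 array, and no replicate could be left out. Shares of all measured genes under the same setting follow each count in parentheses. Against 42 measured factors, 8 past 2-fold toward fibers and 5 toward epithelium, the second brightest probe gave 22, 1 (13.4%) and 6 (15.9%), and no floor gave 66, 10 (8.07%) and 5 (7.63%). The number toward fibers was 13 (19.5%) with the median of genes above both floors at 0, 3 (7.98%) when scaled to ribosomal protein genes, 2 (11.0%) with the floor at the 99th percentile, 2 (13.9%) with the mean of all probes, 17 (24.7%) at 1.5-fold and 1 (7.13%) at 3-fold. The number toward epithelium was 2 (14.8%) with the floor at the 99th percentile, 3 (8.98%) at 3-fold and 3 (17.1%) with RefSeq probes only. With housekeeping scaling it was 0 (2.47%) toward fibers and 16 (48.2%) toward epithelium, the factor median was -0.65 and the medians of eIF3, eIF4F and eEF1 were -1.11, -0.75 and -0.51. The eIF2B median was -0.52 with the floor at the 99th percentile, where 1 gene remained. With the second brightest probe 10 of 22 factors turned sign, Eif3k to 0.74, Eif3l to -1.46, Eif4e2 to -0.97, Gspt1 to -1.67, Eif4a1 to -1.18, Eef1aknmt to -2.06, Eif3a to -1.12, Eif4g2 to 0.87, Eif3c to 0.31 and Eif2s3y to -0.63. With the mean of all probes 4 turned, Eef1aknmt to -0.59, Eif3c to 0.33, Eif4g2 to 0.21 and Gspt1 to -0.04, and with RefSeq probes only Eif3k turned to 0.74. The causes were not tested, except that a stricter floor and the second probe leave fewer genes. Of the ratios of single factors over all alternatives, 401 moved by less than 0.74, the pooled SD between probes of 1 gene. A further 66 moved by that or more, and 4 ratios of factors past 2-fold turned sign. Housekeeping scaling moved 38 of 42, and of 22 factors with a second brightest probe 9 moved and 3 of those past 2-fold turned sign. Eif2d was 2-fold or more higher in epithelium under each of the 10 alternatives that measured it. All of these used its 1 measured probe, a clone probe, alone or within the mean. The second brightest probe and RefSeq probes alone gave no measured value for Eif2d, so its direction was not checked by another probe. Signal over background limits the 24 factors below both floors, whose levels are not known to be equal.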

Other observations

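The mitochondrial counterparts of these factors and the enzymes that modify eIF5A and eEF2 were read from the same arrays. Of 5 measured mitochondrial translation factors, 2 reached 2-fold toward fibers and none toward epithelium, with a median log2 ratio of 0.82. Tufm, the mitochondrial elongation factor that delivers aminoacyl-tRNA, was below the floor in epithelium (25.8) and read 198 in fibers, at least 4.44-fold higher. Bounds toward fibers were 2.36-fold for the release factor Mtrf1l and 1.76-fold for the ribosome recycling factor Gfm2. Mtif2, the initiation factor that places the first tRNA, read 96.0 and 143 (1.49-fold). In 4 of these 5 genes the epithelium value was below the floor. Of 7 genes for hypusine and diphthamide synthesis, 2 were measured. Dph1 and Dph3, both of the diphthamide pathway that modifies eEF2, had log2 ratios of -0.86 (214 and 118) and -0.07 (198 and 188).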
